A study of Mus musculus with 8 samples.

Results

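Rag1, Rag2 and Dntt are the 3 lymphocyte-specific genes that cut and diversify antigen receptor genes, and they were found by symbol among 23420 gene symbols counted in mouse thymocytes. All 3 were counted in every library, and all 3 were among the 11409 genes with enough counts to test. RNA was sequenced from wild-type mice of the strains labelled B6 and BALB, in 8 libraries of 4 groups, with 2 libraries per group, DP thymocytes purified by sorting or whole thymocytes from either strain. DP thymocytes are the CD4+ CD8+ stage, and the sort took CD69-negative cells with low or intermediate T cell receptor staining by the antibody H57, which sees its beta chain. Unsorted (whole) thymocytes include every stage from CD4- CD8- (DN) precursors to mature cells. The labels give no substrain, age or sex, and they do not say whether the 2 libraries of a group came from separate mice. The p-values therefore measure only the spread between these libraries, which may be technical. All animals were wild type, so no group carries an altered Rag1, Rag2 or Dntt allele by its labels.

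The proteins RAG1 and RAG2 form the recombinase that cuts DNA beside the V, D and J segments of T cell receptor and immunoglobulin genes. RAG1 carries the catalytic site, and RAG2 holds a PHD finger that binds trimethylated lysine 4 of histone H3. Dntt encodes terminal deoxynucleotidyl transferase (TdT), a polymerase that adds bases without a template to the cut ends before they are joined. In the thymus the recombinase acts first in DN cells, on the beta, gamma and delta loci, and then in DP cells, on the alpha locus, and it is shut off once a receptor is selected.

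Rag1 and Rag2 lie side by side in the mouse genome and are read towards each other. In GENCODE release M21 of mm10, Rag1 (ENSMUSG00000061311) covers chromosome 2 from 101638282 to 101649501 on the minus strand, and Rag2 (ENSMUSG00000032864) covers 101624718 to 101632529 on the plus strand, so that 5752 bases separate their 3′ ends. Dntt (ENSMUSG00000025014) lies on chromosome 19 from 41029275 to 41059525, on the plus strand. The 3 genes are built differently. Rag1 has 2 exons, one of them 6528 bases long, and Rag2 has 3 exons, the longest of 3208 bases, whereas Dntt spreads 12 exons over 30251 bases and none is longer than 460 bases. Another gene, B230118H07Rik (Iftap, also called NWC), overlaps both Rag genes. Its annotated exons share 80 bases with Rag1, or 1.21% of the Rag1 exons, and 208 bases with Rag2 on the opposite strand, or 6.07% of the Rag2 exons. B230118H07Rik lies on the minus strand like Rag1, so strand could not assign reads from the 80 shared bases to 1 gene. The library kit keeps no strand, so reads from the 208 bases shared with Rag2 cannot be assigned either. Which annotation the submitters counted with is not stated.

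The regions from 250 bases before to 50 bases after the annotated starts of the 3 genes are shown because the levels of the 3 genes are set against each other here. They come from RefSeq on GRCm38.p6, at chr2:101649483-101649782 on the minus strand for Rag1, chr2:101624462-101624761 on the plus strand for Rag2 and chr19:41029025-41029324 on the plus strand for Dntt. Capitals mark matches on either strand to CANNTG (the E-box bound by E proteins such as Tcf3 and Tcf12), TGTGGT (RUNX), GATAA (GATA) or CCAAT.
Rag1: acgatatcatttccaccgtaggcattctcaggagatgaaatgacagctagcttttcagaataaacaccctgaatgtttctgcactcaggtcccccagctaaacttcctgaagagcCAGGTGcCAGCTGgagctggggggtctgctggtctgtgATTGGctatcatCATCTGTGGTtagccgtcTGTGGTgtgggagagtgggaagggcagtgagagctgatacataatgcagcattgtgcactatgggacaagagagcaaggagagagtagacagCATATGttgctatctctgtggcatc
Rag2: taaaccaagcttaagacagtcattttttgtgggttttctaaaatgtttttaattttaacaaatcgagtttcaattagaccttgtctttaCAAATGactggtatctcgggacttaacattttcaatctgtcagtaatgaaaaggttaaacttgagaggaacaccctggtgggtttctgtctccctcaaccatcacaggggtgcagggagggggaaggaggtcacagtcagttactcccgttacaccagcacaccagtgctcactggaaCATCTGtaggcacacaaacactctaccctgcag
Dntt: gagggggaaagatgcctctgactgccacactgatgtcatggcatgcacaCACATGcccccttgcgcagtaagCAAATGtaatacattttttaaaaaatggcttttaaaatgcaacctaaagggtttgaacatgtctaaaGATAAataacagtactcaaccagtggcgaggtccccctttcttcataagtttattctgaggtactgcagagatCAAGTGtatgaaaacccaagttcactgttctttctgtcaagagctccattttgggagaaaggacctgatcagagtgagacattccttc

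The Rag1 window held 4 matches to CANNTG, the Rag2 window 2 and the Dntt window 3, against at least 1 match in 72.3% of the 32851 windows of this length in the table. TGTGGT occurred at 2 places in the Rag1 window, 1 of them overlapping an E-box match, and in 16.8% of all windows. CCAAT occurred once for Rag1 (37.4% of all windows) and GATAA once for Dntt (25.4%). TATAAA, which 13.6% of windows held, was in none of the 3. A match of letters is a description and not a site of binding.

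The libraries held 2632083 to 5974684 counts in genes. BALB DP replicate 1 stood apart in Rn45s, which encodes the precursor of ribosomal RNA, at 3.14% of its counts where the other libraries had 5.11% to 8.35%. It also had the most counts and the largest share of reads in genes, 30.8% against 22.6% to 26.3%. The BALB DP pair differed most between replicates, with a chi-square per degree of freedom of 18.2 against 1.62 to 4.35 in the other groups. The tests below share 1 estimate of spread over the 4 groups. All 12 DP markers checked, such as Cd4, Cd8a and Arpp21, had counts in every group, which alone does not tell sorted from whole thymocytes. Their summed level was 11574 to 11765 CPM in the B6 DP libraries and 9861 to 9938 CPM in the BALB DP libraries. In whole thymocytes the sum was lower, at 7674 to 7945 CPM in B6 and 6894 to 7137 CPM in BALB. CPM are counts relative to the total of counts in genes of the library, adjusted between libraries by the trimmed mean of M values (TMM). The 12 mature thymocyte markers summed to 248.8 to 313 CPM in the DP libraries and 854 to 971 CPM in the whole thymocyte libraries.

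Rag1 was among the most abundant messages of these cells, and its group means fell from B6 DP to BALB whole thymocytes. It took 1.02% and 0.947% of the counts in genes in the B6 DP libraries, in order of replicate. Per kilobase of annotated exon it ranked 8 and 13 among 21777 genes with a known length in those libraries. In the BALB whole thymocyte libraries it ranked 41 in both. Rag1 stood at 10504 and 9864 CPM in B6 DP, 5372 and 5662 CPM in B6 whole thymocytes, 4811 and 4845 CPM in BALB DP, and 3538 and 3183 CPM in BALB whole thymocytes. Both B6 DP libraries were far above the other 6, and no 2 groups overlapped, which with 2 libraries per group is a description only. The group means were 10184 ± 453 (SD, n = 2), 5517 ± 205, 4828 ± 23.5 and 3361 ± 251 CPM in that order. The nearest neighbours in the order were B6 whole and BALB DP thymocytes, whose means differed by a ratio of 1.14 and were not compared by a test. Counting error was small, at 0.945% to 1.76% of the value (from the value to the bound of an exact 95% Poisson interval, which covers counting error only).

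**Figure D1:**
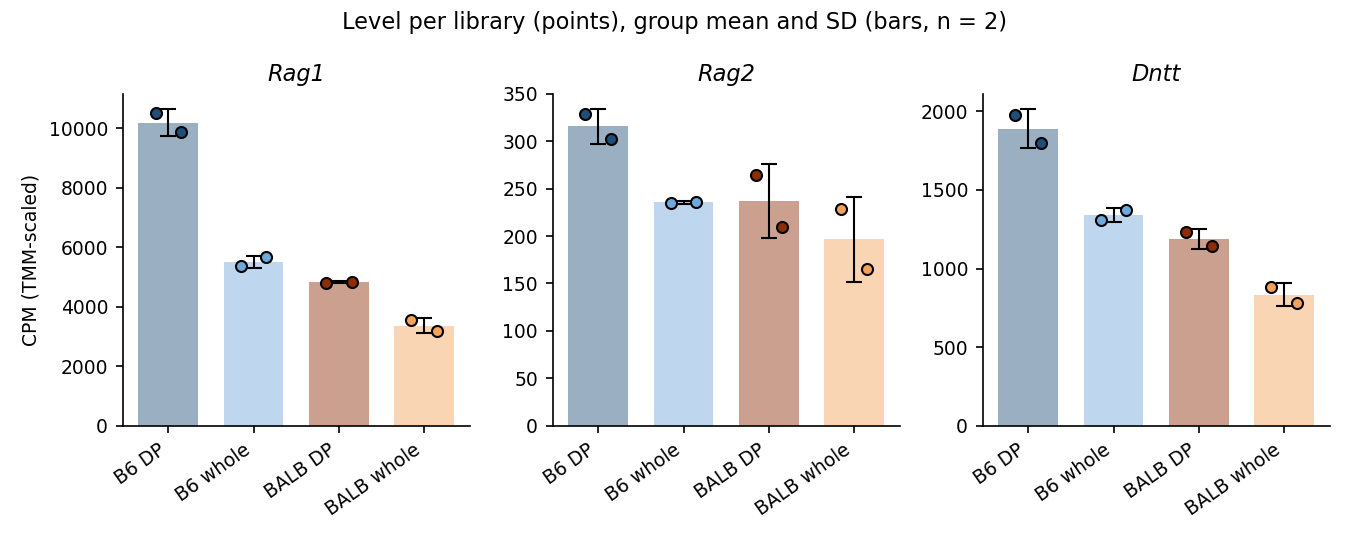
TMM-scaled CPM of Rag1, Rag2 and Dntt in each library (points) of the 4 groups, with the group mean as a bar and the SD over 2 libraries as an error bar. Each gene is highest in B6 DP, from 10184 CPM for Rag1 to 316 CPM for Rag2, and lowest in BALB whole thymocytes, and the 2 BALB libraries of each group lie apart for Rag2.

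Rag2 was less abundant than its partner per kilobase of exon and varied more between libraries. Its counts gave 328 and 303 CPM in B6 DP, 234 and 236 CPM in B6 whole thymocytes, 265 and 209 CPM in BALB DP, and 228 and 165 CPM in BALB whole thymocytes. The 2 B6 groups were separate, while the BALB groups overlapped each other and BALB DP also overlapped B6 whole thymocytes. Within BALB the libraries of a group differed by a ratio of 1.27 in DP and 1.38 in whole thymocytes, against 1.08 and 1.01 in B6. Counting error did not cover the BALB gap in DP, since the 95% Poisson intervals were 252 to 279 and 192 to 228 CPM. Both high BALB libraries are the ones numbered 1, of which the DP library was also the one low in Rn45s. Their part in the result was not tested beyond leaving them out. Per kilobase of exon, Rag1 exceeded Rag2 by 16.7 ± 0.215 times (SD, n = 2) in B6 DP and by 9.01 ± 1.39 times in BALB whole thymocytes.

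Dntt followed the order of Rag1. It stood at 1976 and 1801 CPM in B6 DP, 1308 and 1374 CPM in B6 whole thymocytes, 1235 and 1142 CPM in BALB DP, and 885 and 783 CPM in BALB whole thymocytes. The 4 groups did not overlap, again a description of 2 libraries per group. Between B6 whole and BALB DP thymocytes, the closest pair, the means differed by a ratio of 1.13 and were not compared by a test. Per kilobase of exon, the group means of Dntt ran from 824 ± 54.1 CPM per kilobase (SD, n = 2) in B6 DP to 364 ± 31.5 in BALB whole thymocytes, and it ranked 20 to 58 among the genes with a known length.

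The comparison of BALB with B6 asks whether the strains differ in the transcripts of the recombination machinery at the same stage. Whether reads of both strains align equally well to mm10, the genome named in the processing notes, was not tested. In sorted DP thymocytes, BALB had less than B6 of both Rag1 and Dntt. Rag1 was lower by the larger amount, with a log2 fold change of −1.08 ± 0.077 (SE; edgeR adjusted p = 4.46e-06, from quasi-likelihood F tests adjusted over all genes by Benjamini and Hochberg), or 0.474 of the B6 level. Dntt was lower by −0.67 ± 0.095 (edgeR adjusted p = 0.000856). Rag2 had a log2 fold change of −0.41 ± 0.15 and did not pass (edgeR adjusted p = 0.0997), although its BALB libraries lay below both B6 libraries. Thus 2 of 3 genes were called lower, where 6.14% of all tested genes were called lower. Rag2 passed without BALB DP replicate 1, at −0.59 ± 0.15 (edgeR adjusted p = 0.0179).

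The sorted cells differed in other ways as well. The summed DP markers were lower in BALB, with 5 of 12 called lower and none higher, among them Arpp21, an RNA-binding protein gene of DP cells, at −0.38, and the median of the 12 was −0.27. DN thymocyte markers summed to 397 to 488 CPM in BALB DP against 510 to 520 in B6 DP, with 2 of 10 called lower (Il2ra at −2.54 and Ptcra at −0.97) and 1 higher (Cd44 at 1.76). Most of these sums came from Notch1, at a mean of 316 CPM in BALB DP and 384 in B6 DP, which was not called. Of the 12 mature markers 2 were called higher and 2 lower. Among all genes 6.85% were called higher and 6.14% lower in this comparison. The B cell, myeloid and thymic epithelial marker lists were low in all 4 DP libraries, at most 12.1, 56.2 and 10.5 CPM in sum. Foxn1, the defining factor of thymic epithelium, had no count in any DP library. Their part in the strain difference was not tested.

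In whole thymocytes the strain difference of Dntt was about as large as in DP cells, and that of Rag1 was smaller. Rag1 had a log2 fold change of −0.72 ± 0.076 (edgeR adjusted p = 0.000147) and Dntt of −0.69 ± 0.095 (edgeR adjusted p = 0.00105). For Rag2 the value was −0.26 ± 0.15, which did not pass (edgeR adjusted p = 0.523). Both called genes were lower, against 2.61% of all genes called lower. In bulk samples fewer cells of a type and less RNA per cell cannot be told apart. Markers of other cells differed in both directions, where 1.98% of all genes were called higher and 2.61% lower. Thymic epithelial markers summed to 93.0 to 105 CPM in BALB whole thymocytes against 34.2 to 45.7 in B6, with 2 of 7 tested called higher and none lower. DN thymocyte markers summed to 549 to 588 CPM in BALB against 654 to 721 in B6, with 2 of 10 called lower (Il2ra at −0.91 and Ptcra at −1.09) and 1 higher (Cd44 at 1.37). Most of these sums came from Notch1, at a mean of 348 CPM in BALB and 442 in B6, which was not called. Mature markers were at 934 to 971 against 854 to 959 CPM and B cell markers at 13.7 to 17.9 against 17.4 to 19.2 CPM. Myeloid markers were at 269 to 279 against 231 to 252 CPM, with 1 of 10 called in each direction. Of the 5 natural killer markers 2 were tested and Eomes alone was called. Eomes was at 30.7 ± 1.71 CPM in BALB against 0.875 ± 1.24 in B6 (SD, n = 2). Nkg7, the other tested marker, was higher in BALB without passing. Among the untested markers, all with few counts, Klrb1c and Klre1 had lower means in BALB and Ncr1 a higher mean. Eomes therefore does not stand for the list, and whether natural killer cells differed was not tested. The part of these differences in the strain difference was not tested. Defining genes of DP cells differed little there, with Cd8a at a log2 fold change of 0.02 and Cd4 at −0.11, neither of which passed.

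Over both populations the strain coefficient of an additive model was −0.90 ± 0.078 for Rag1 (edgeR adjusted p = 1.37e-05) and −0.68 ± 0.068 for Dntt (edgeR adjusted p = 4.46e-05), with 6.0% of all genes called lower. Rag2 was at −0.33 ± 0.11 and just missed the threshold (edgeR adjusted p = 0.0744). It passed when BALB DP replicate 1 (−0.40) or BALB whole thymocyte replicate 1 (−0.45) was left out, and its value was −0.57 without both.

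**Figure D2:**
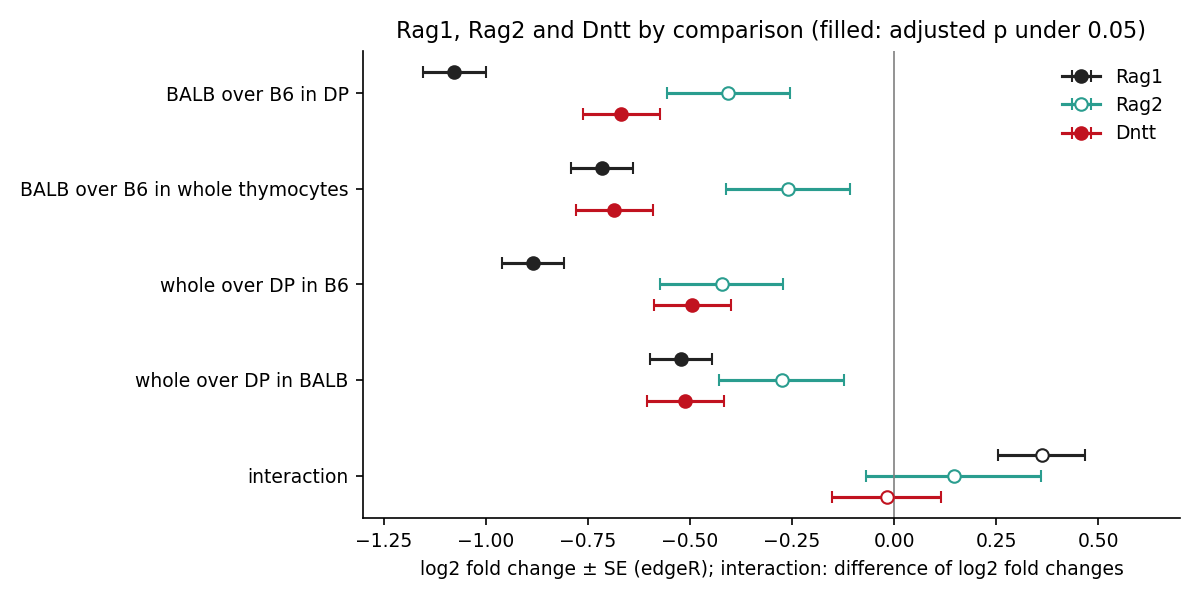
Log2 fold changes (points) with standard errors (bars) of the 3 genes in the 4 simple comparisons and in the interaction, which is the strain difference in whole thymocytes minus that in DP thymocytes. Filled points passed an adjusted p of 0.05; Rag1 and Dntt lie below 0 in all 4 simple comparisons, and Rag2 does too without passing.

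The comparison of whole with sorted DP thymocytes asks how far the 3 messages belong to the sorted stage. All 3 were lower in whole thymocytes in both strains, and Rag1 and Dntt passed in each. In B6, Rag1 fell by 0.88 ± 0.076 on the log2 scale (edgeR adjusted p = 3.17e-05), to 0.542 of its DP level, and Dntt fell by 0.49 ± 0.094 (edgeR adjusted p = 0.00659). Rag2 had a log2 fold change of −0.42 ± 0.15 without passing (edgeR adjusted p = 0.107). It passed at −0.41 without BALB DP replicate 1 (edgeR adjusted p = 0.0177) or replicate 2 (0.0175), with no filter on low counts (0.0110) and without both BALB libraries numbered 1 (5.13e-05), and at −0.40 with only the 4 B6 libraries (9.43e-05). Among all genes 3.27% were called lower. The Dntt call ended without B6 DP replicate 1 (−0.43; edgeR adjusted p = 0.0849), B6 whole thymocyte replicate 1 (−0.46; 0.0973) or B6 whole thymocyte replicate 2 (−0.53; 0.0527).

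In BALB, Rag1 fell by 0.52 ± 0.076 (edgeR adjusted p = 0.000761) and Dntt fell by 0.51 ± 0.095 (edgeR adjusted p = 0.00344), against 6.59% of genes called lower. Rag2 was at −0.28 ± 0.15 and did not pass (edgeR adjusted p = 0.243). It passed without BALB DP replicate 2, at −0.45 (edgeR adjusted p = 0.0163), and the value was −0.093 without BALB DP replicate 1 and −0.065 without BALB whole thymocyte replicate 2. Over both strains Rag2 did pass, at −0.35 ± 0.11 (edgeR adjusted p = 0.0415), as did Rag1 at −0.70 ± 0.078 (6.55e-05) and Dntt at −0.50 ± 0.068 (0.000290), where 8.01% of genes were called lower. The Rag2 call ended when any 1 of 5 libraries was left out, namely the 4 of B6 (−0.36 to −0.32) and BALB whole thymocyte replicate 2 (−0.28).

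Markers of the DP stage were lower in whole thymocytes as well. Of the 12 DP markers 10 were called lower in B6 whole thymocytes and 11 in BALB, with median log2 fold changes of −0.53 and −0.56, against 0.00 for all genes tested in both. Arpp21 was at −0.61 in B6 and −0.62 in BALB, Cd4 at −0.61 and −0.42, and Cd8a at −0.53 and −0.36. Among all genes 3.27% were called lower in B6 and 6.59% in BALB. Mature thymocyte markers moved the other way, with 10 of 12 called higher in B6 and all 12 in BALB, where 6.89% and 10.6% of all genes were. The class I gene H2-K1, which mature cells carry at a high level, rose from 14.6 ± 0.676 to 172 ± 10.6 CPM (SD, n = 2) in B6. Of 10 DN thymocyte markers tested, 6 were called higher in B6 and 7 in BALB, among them Cd44, at 9.71 CPM in B6 DP and 25.5 in B6 whole thymocytes. Il2ra rose by 2.64 in B6 and 4.27 in BALB, while Ptcra was at 0.01 and −0.12 without passing. The sort itself removed CD69-positive and H57-high cells, so the share of DP cells differs between the populations by design.

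Whether the strain difference depends on the population was asked with the interaction. For Rag1 the strain difference was smaller in whole thymocytes by 0.36 ± 0.11 on the log2 scale (unadjusted p = 0.00576 by edgeR), which did not pass after adjustment (edgeR adjusted p = 0.257). The interaction was 0.15 ± 0.21 for Rag2 (edgeR adjusted p = 0.852) and −0.02 ± 0.13 for Dntt (edgeR adjusted p = 0.982). Only 14 genes, or 0.123%, were called in this test. The Rag1 interaction passed when no filter on low counts was used (edgeR adjusted p = 0.0120) and without BALB DP replicate 2 (0.33; edgeR adjusted p = 0.0169).

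Ratios within a library need no scaling between libraries, and they set the 3 genes against each other. For every Dntt count, B6 DP thymocytes had more Rag1 counts than the other groups. The ratio of Dntt to Rag1 was 0.188 and 0.183 in the B6 DP libraries, 0.243 in both B6 whole thymocyte libraries, 0.257 and 0.236 in BALB DP, and 0.250 and 0.246 in BALB whole thymocytes. BALB DP overlapped both whole thymocyte groups, and B6 DP stood below all 3. Between the strains the log2 ratio differed by 0.41 in DP and by 0.03 in whole thymocytes. An exact two-sided permutation test, exchanging strain labels within each population, gave p = 0.0556 for their mean of 0.22. That is the smallest p its 36 arrangements allow, so no such test could pass 0.05, and adjusted over the 12 tests of 6 ratios it was 0.133.

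The ratio of Rag1 to Rag2 fell in the same order as Rag1 itself. It was 32.0 and 32.6 in B6 DP, 22.9 and 24.0 in B6 whole thymocytes, 18.2 and 23.2 in BALB DP, and 15.5 and 19.3 in BALB whole thymocytes. The BALB groups overlapped each other, and BALB DP overlapped B6 whole thymocytes. BALB was lower than B6 by −0.55 on the log2 scale (exact permutation p = 0.0556, adjusted 0.133), and whole thymocytes were lower than DP thymocytes by −0.35 (exact permutation p = 0.111, adjusted 0.190). For Dntt to Rag2 the mean strain difference was −0.33 (exact permutation p = 0.0556, adjusted 0.133), with group means from 5.98 ± 0.0498 in B6 DP to 4.31 ± 0.613 in BALB whole thymocytes (SD, n = 2).

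Against the summed DP markers of the same library, Rag1 and Dntt remained lower in BALB than in B6 in both populations. The ratio of Rag1 to these markers was 0.893 and 0.852 in B6 DP, 0.700 and 0.713 in B6 whole thymocytes, 0.487 and 0.488 in BALB DP, and 0.496 and 0.462 in BALB whole thymocytes. All 4 B6 libraries were above all 4 BALB libraries, and the 2 BALB groups overlapped. The strain difference was −0.84 in DP and −0.56 in whole thymocytes, with a mean of −0.70 (exact permutation p = 0.0556, adjusted 0.133). Dntt to the DP markers gave 0.162 ± 0.00874 in B6 DP and 0.172 ± 0.00177 in B6 whole thymocytes against 0.120 ± 0.00728 and 0.119 ± 0.00736 in BALB (SD, n = 2), a strain difference of −0.48 (exact permutation p = 0.0556, adjusted 0.133). Rag2 to the DP markers differed by −0.15 between strains (exact permutation p = 0.444), a log2 difference that turned to 0.078 when the geometric mean of the markers was used, and within each population the strains overlapped.

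Between populations, these ratios differed less than the levels did. On the log2 scale the difference of whole from DP thymocytes was 0.04 for Dntt (exact permutation p = 0.50; a log2 difference of −0.00028 with the geometric mean of the markers), 0.19 for Rag2 (0.222) and −0.17 for Rag1 (0.167). For Rag1 it was −0.30 in B6, where the groups did not overlap, and −0.03 in BALB, where they did.

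**Figure D3:**
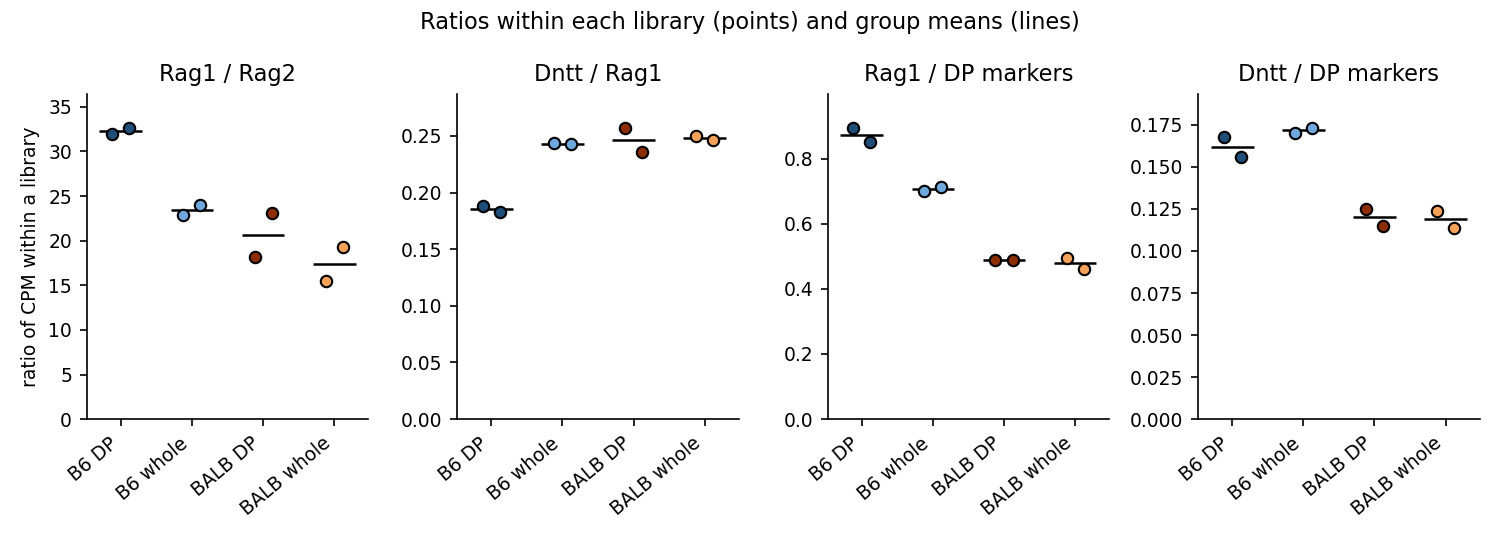
Ratio of CPM within each library (points) and group mean (lines) for Rag1 to Rag2, Dntt to Rag1, and Rag1 and Dntt to the summed level of 12 DP markers. B6 DP stands apart from the other groups in Rag1 to Rag2 and in Dntt to Rag1, and the BALB libraries lie below the B6 libraries in both ratios to the DP markers.

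The partners of the recombinase did not move as a block. Across 6 lists of related genes with 57 genes tested, 8 were lower and 7 higher in BALB than in B6 DP thymocytes, where 6.14% and 6.85% of all genes were. In BALB whole thymocytes 2 were lower and none higher, where 2.61% and 1.98% of all genes were. In whole against DP thymocytes 11 were lower and 6 higher in B6 (3.27% and 6.89% of all genes), and 15 lower and 8 higher in BALB (6.59% and 10.6% of all genes). None was called in the interaction by edgeR, DESeq2 or limma, and 9 had an unadjusted edgeR p under 0.05. These counts moved with single libraries. The 15 calls between strains in DP became 24 without BALB DP replicate 2, 5 and 6 without B6 DP replicate 1 and 2, and 9 without either B6 whole thymocyte replicate. The 2 calls in whole thymocytes became 6 without either BALB DP replicate, and none without any 1 of the other 6 libraries. The 17 calls of whole over DP in B6 became 5 to 9 without 1 of the 4 B6 libraries, and the 23 in BALB became 14 and 13 without BALB whole thymocyte replicate 1 and 2.

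Hmgb1 and Hmgb2, DNA-bending proteins that help the recombinase bind and cut, went separate ways. Hmgb1 was lower in BALB DP, at 37.8 ± 0.777 CPM against 58.7 ± 3.53 in B6 DP (SD, n = 2), and fell in whole thymocytes of both strains. Hmgb2 was higher in BALB DP, at 623 ± 149 against 321 ± 12.2 CPM (log2 fold change 0.96; edgeR adjusted p = 0.00252). It shared that direction with the S-phase genes Ccna2 (cyclin A2, at 0.76) and Pcna (0.51), and with H2afx (1.02), the histone H2A variant that marks DNA breaks. Cyclin A2 with Cdk2 is known to mark RAG2 for destruction in dividing cells, and Cdk2 itself was at −0.06 without passing. Of the 10 tested genes of RAG protein turnover, 2 were higher and 1 lower in BALB DP, where 6.85% and 6.14% of all genes were, the lower one being the Cdk2 inhibitor gene Cdkn1b at −0.32 (edgeR adjusted p = 0.0499), and the median was −0.05 against 0.00 for all genes. The spread of Hmgb2 and H2afx within BALB DP was wide, at 422 ± 114 CPM for H2afx, and its bearing on these values was not tested.

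Among 16 genes of end joining and the break response, few were called between strains. In DP 1 was lower and 1, H2afx, higher, where 6.14% and 6.85% of all genes were. In whole thymocytes 1 was lower and none higher, where 2.61% and 1.98% of all genes were. The lower gene was Xrcc6 in both, which encodes the end-binding protein Ku70, at −0.37 in DP and −0.43 in whole thymocytes. Between populations, Xrcc6 also fell in whole thymocytes of B6 (by 0.32) and BALB (by 0.37). Lig4, the ligase of this pathway, fell by 0.38 and 0.39, and Dclre1c, the hairpin-opening nuclease Artemis, fell by 0.44 in B6 and was at −0.30 in BALB without passing. In all 3 lower and none higher were called in B6, where 3.27% and 6.89% of all genes were, and 4 lower and 1 higher in BALB, where 6.59% and 10.6% were. The median log2 fold changes of the list were −0.06 and −0.22. Poll, a polymerase of the TdT family, was near the limit of detection, at 0.657 ± 0.0408 CPM in B6 DP, 0.388 ± 0.549 in BALB DP and 3.78 ± 1.82 in BALB whole thymocytes.

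Of 17 transcription factors tied to Rag or Dntt transcription, 6 fell and 2 rose in whole thymocytes of B6, and also 6 and 2 in BALB, where 3.27% of all genes fell and 6.89% rose in B6 and 6.59% fell and 10.6% rose in BALB, with list medians of −0.24 and −0.20. Tcf12, the E protein HEB, fell by 0.53 and 0.58, and Myb fell by 0.50 and 0.47. Lef1 rose by 0.47 and 0.65. Between strains, 5 of the 17 were lower in BALB DP thymocytes and 1 was higher, against 6.14% and 6.85% of all genes. The list median there was −0.07, against 0.00 for all genes. The factors called in this comparison are not named here. Tcf12, at 0.22, and Tcf3, which encodes the E proteins E12 and E47, at 0.06, were not among them and do not stand for the list.

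Most of the tested genes of signals that accompany the end of recombination rose in whole thymocytes. Of 6 tested, 4 rose in both strains and none fell, where 6.89% of all genes rose in B6 and 10.6% in BALB, with list medians of 1.75 in B6 and 1.44 in BALB. Id2, an inhibitor of E proteins, rose from 4.71 ± 0.447 to 22.4 ± 0.520 CPM in B6 and from 5.70 ± 0.366 to 20.4 ± 1.52 CPM in BALB (SD, n = 2). Egr1 and Egr3, induced by T cell receptor signals, rose by 1.28 and 2.86 in B6 and by 1.30 and 3.25 in BALB. Nr4a1 was the 1 gene of the list called between strains in DP, at 27.8 ± 7.35 CPM in BALB against 9.24 ± 0.189 in B6. Id3 was at 0.08 in B6 and −0.04 in BALB without passing.

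**Figure D4:**
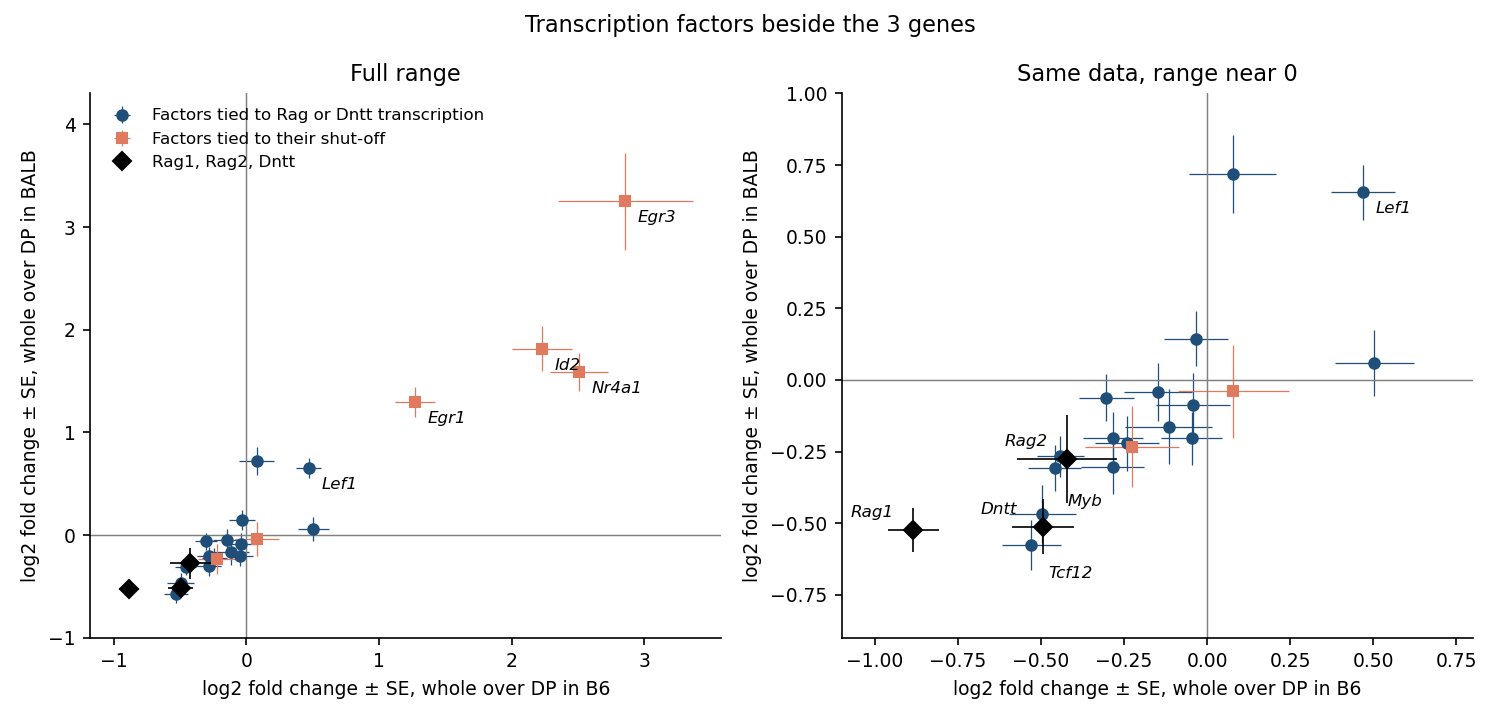
Log2 fold changes of whole over DP thymocytes in B6 (horizontal) and in BALB (vertical) with standard errors, over the full range (left) and near 0 (right), for 16 of the 17 factors tied to Rag or Dntt transcription (circles), factors tied to shut-off (squares) and the 3 genes (diamonds). Egr1, Egr3, Id2 and Nr4a1 lie above 1 in both strains, while Tcf12 and Myb lie near Dntt, and Rag1 lies farthest to the left at −0.88.

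Of the tested genes beside the Rag genes and beside Dntt, 1 at each locus was called between strains over both populations. Among all 11409 genes tested, 1237 were called in that comparison, so the calls do not single out these loci. Within 300 kb of Rag1 and Rag2, 4 other annotated genes were counted and 3 were tested. B230118H07Rik, which overlaps both, was lower in BALB over both populations (−0.57 ± 0.14; edgeR adjusted p = 0.0197), at 19.4 ± 2.60 CPM in B6 DP and 13.9 ± 0.618 in BALB DP (SD, n = 2). In whole against DP thymocytes it was at 0.32 in B6 and 0.18 in BALB, without passing. Traf6, a ubiquitin ligase of innate signalling, was at 0.07 over both populations and Commd9 at 0.29, and neither passed. Within 300 kb of Dntt, 7 genes were counted and 4 tested. Blnk, a B cell receptor adaptor, was higher in BALB over both populations (1.29; edgeR adjusted p = 0.0117) at 1.58 ± 0.0212 CPM in B6 DP and 4.36 ± 0.967 in BALB DP. It had only 106 counts over the 8 libraries. Neither Blnk nor B230118H07Rik passed between strains in DP or in whole thymocytes alone. Ccnj (−0.12), Zfp518a (−0.15) and Tm9sf3 (0.09) did not pass, and no neighbour at either locus was called between populations over both strains.

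Across the 8 libraries the level of Rag1 ran closer to that of Dntt, on another chromosome, than to that of its neighbour Rag2. Pearson's r of log2 CPM over the 8 libraries, given as a description because the libraries share groups and scaling, was 0.98 between Rag1 and Dntt, 0.88 between Rag1 and Rag2 and 0.90 between Dntt and Rag2. Counting error was larger for Rag2, at 5.07% to 8.54% of the value, than for Rag1 (0.945% to 1.76%) or Dntt (2.21% to 3.63%). Its part in the lower r of Rag2 was not tested. Among 6643 other genes with a mean of at least 20 CPM, Dntt was number 10 by r to Rag1, and Rag2 was number 250. The 5 genes most like Rag1 were Nhsl1, Cdk17, Atp10a, Aff3 and Trpc4ap, with r from 0.993 to 0.988. For Dntt they were Magi3, Hp1bp3, Cdk17, Auh and Wdr78 (0.993 to 0.985), and for Rag2 Rprd1a, Lin7c, Hibadh, Suv420h2 and Cnot7 (0.981 to 0.951).

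The size of the differences varied among those genes. Nhsl1, the closest to Rag1, was at 134 ± 3.65 CPM in B6 DP, 82.8 ± 3.99 in B6 whole thymocytes, 76.4 ± 0.713 in BALB DP and 55.6 ± 8.76 in BALB whole thymocytes (SD, n = 2). Its strain difference in DP, −0.81, was smaller than the −1.08 of Rag1. Magi3, the closest to Dntt, was at −0.65 between strains in both populations, beside −0.67 and −0.69 for Dntt. Which genes head these lists was not stable, since leaving out 1 library kept 2 to 4 of the 5 for Rag1, 1 to 4 for Rag2 and 2 to 5 for Dntt, and ranking by the root mean square difference in place of r kept 1 of the 5 for each of the 3 genes.

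**Figure D5:**
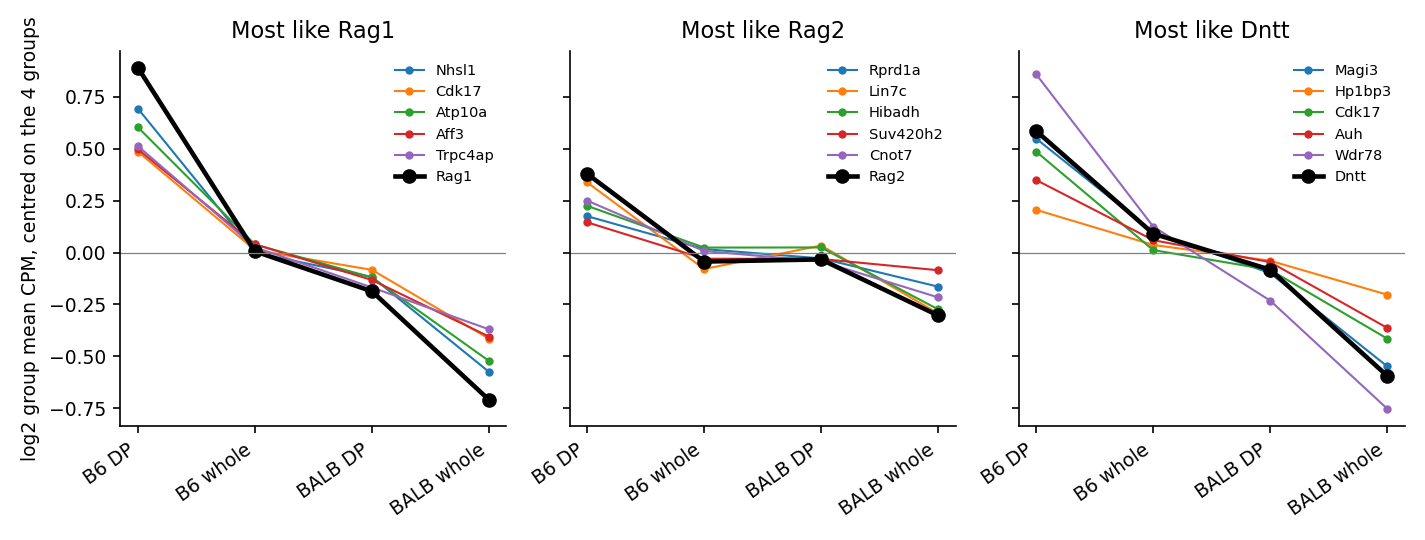
Log2 of the group mean CPM, centred on the mean of the 4 groups, for Rag1, Rag2 and Dntt (black) and the 5 genes with the highest Pearson r to each over 8 libraries (colours). The black Rag1 line has the widest span of its panel, and all lines start highest in B6 DP.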

How the data were processed

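Libraries of 8 thymocyte RNA samples used a TruSeq kit (RNA Sample Prep Kit v2), per the labels' protocols. The submitters' processing notes name HISAT2 2.2.0, HTSeq, DESeq2 1.42.1 and mm10. Neither the annotation nor the read filters are stated. The authors deposited whole-number counts per gene symbol, without normalization. HTSeq's classes outside genes held 69.2% to 77.4% of reads and stayed out of every step.

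The 3 genes, the lists and the tests were chosen with earlier results of these data known. In R 4.3.3, edgeR 4.0.16 kept 11409 genes (filterByExpr), scaled by TMM, fitted 1 coefficient per group, and gave quasi-likelihood tests adjusted by Benjamini and Hochberg, called at an adjusted p under 0.05. Additive models served the comparisons over both populations or strains. The fit was tested on simulated data. Exon lengths came from GENCODE M21 by symbol (21777 genes) and promoter windows from RefSeq. Of 62 list entries only Paxx was not found. Named genes were the 3 genes, the tested neighbours, up to 4 genes per list with the smallest p, up to 3 markers per list with the highest level and the 5 genes most like each. Cdk2, Tcf3, Id3, Foxn1, Il2ra and Ptcra were named after their values were seen, and 1 gene of the lists is not reported here by name. Ratios, intervals and figures used Python 3.11.15, scipy 1.17.1 and matplotlib 3.10.9, and alternatives used DESeq2 1.42.0 and limma 3.58.1.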

Additional observations from a re-analysis of the deposited data

How the results depend on the processing

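Of 390 values of the 3 genes under 19 settings, 354 kept their direction and side of the threshold, including all of Rag1 and Dntt except those named here. Leaving out Rn45s or both BALB libraries numbered 1 was chosen after seeing the data. Each cause was not tested. The Rag1 interaction passed with no filter at 0.36 and ran from 0.28 to 0.43 with 1 library left out. With no filter on low counts Rag2 passed between strains in DP (−0.41), between populations in B6 (−0.41) and between strains over both populations (−0.34). Without both BALB libraries numbered 1 Rag2 passed in these comparisons at −0.60, −0.41 and −0.57, between strains in whole thymocytes at −0.54 and between populations in BALB at −0.34. With only the 4 libraries compared it passed in B6 at −0.40, and there also without either BALB DP library (−0.41). With the replicate number as a block it passed between strains over both populations at −0.35 and the list calls there went from 11 to 7, the numbers do not pair the libraries (r of deviations −0.038 to 0.057), and no other call of the 3 genes changed under the block. Rag2 over both strains lost its call with upper-quartile scaling (−0.30), a strict filter (−0.29) and without Rn45s (−0.34). With 1 library left out Rag2 ran from −0.59 to −0.23 between strains in DP, −0.51 to −0.04 in whole thymocytes and −0.45 to −0.26 over both, and from −0.46 to −0.37 between populations in B6, −0.53 to −0.065 in BALB and −0.47 to −0.28 over both. Dntt in whole over DP of B6 ran from −0.54 to −0.43. The interaction turned sign for Rag2 (−0.11 to 0.36) and for Dntt (−0.11 to 0.067, and 0.018 with upper-quartile scaling). With the geometric mean of the DP markers, the strain difference of Rag2 to them turned to 0.078 and the population difference of Dntt to −0.00028.

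List calls between strains in DP (15) were 4 with only the 4 libraries and 5 to 24 with 1 library left out. In whole thymocytes (2) they were 5 with no filter, 4 with robust empirical Bayes, 7 with only the 4 libraries, 10 without both BALB libraries numbered 1 and 0 to 6 with 1 left out. Between populations in B6 (17) they were 11 by DESeq2 and 5 to 21, and in BALB (23) 15 with the strict filter, 13 with only the 4 libraries and 13 to 31. For the interaction (0) they were 3 with no filter, 3 without both BALB libraries and 0 to 9, and over both populations (11) 6 to 15. Over all genes, calls with 1 library left out ran from 509 to 3493 between strains in DP (1482; 562 with only the 4 libraries), 214 to 966 in whole thymocytes (524; 839 with no filter, 325 strict, 1050 and 1046), 378 to 2201 between populations in B6 (1159; 512 strict, 748 by DESeq2, 2568 and 2809), 1040 to 3976 in BALB (1961; 910 strict, 1101) and 0 to 1311 for the interaction (14; 364 with no filter). Over both populations the strict filter gave 809 of 1237 and over both strains 1128 of 2339. Upper-quartile scaling gave 1337 higher and 513 lower between populations in BALB, against 1209 and 752.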
